A study of Homo sapiens with 6 samples.

Results

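The 10 genes described here encode proteins that fold, hydroxylate, trim and crosslink collagen: SERPINH1, P4HA1, P4HA2, PLOD1, PLOD2, LOX, LOXL1, LOXL2, BMP1 and PCOLCE. They were taken by symbol from the 58299 Ensembl genes of the deposited count table, by a rule that names the genes and sets no threshold on a measured value, and all 10 were found and tested. The set was proposed with earlier results of these data known. RNA was sequenced from AC16, an established human cell line derived by fusion of adult ventricular muscle cells with transformed fibroblasts. The 3 control libraries came from cells exposed to 0.1% DMSO, the solvent, during 72 h. The 3 treated libraries came from cells given 100 nM CDDO-Me during 24 h and then 100 nM doxorubicin during 48 h, which also ended at 72 h. CDDO-Me (bardoxolone methyl) is a triterpenoid that activates the transcription factor NRF2, and doxorubicin is an anthracycline that acts on topoisomerase II. Whether CDDO-Me remained on the cells together with doxorubicin is not clear from the labels. The labels carry no mention of a gene edit in either group. No library of cells that received a single drug was analysed here, and a difference therefore cannot be assigned to one drug or the other.

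Fibrillar collagen chains are made in the endoplasmic reticulum, where prolyl 4-hydroxylases modify prolines so that the triple helix is stable at body temperature and lysyl hydroxylases modify lysines that later take part in crosslinks. The chaperone HSP47, the product of SERPINH1, binds the folded triple helix on its way out of the endoplasmic reticulum. Outside the cell, proteases of the BMP1 family remove the C-terminal propeptide, PCOLCE enhances that cleavage, and lysyl oxidases, which need copper, convert lysines to the aldehydes that form crosslinks. In the heart this machinery belongs mainly to fibroblasts and is known for its part in scar formation and fibrosis.

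The libraries held 17150259 to 20193957 counts in genes. The treated libraries had counts in 28021 to 28482 genes and the controls in 21816 to 22205. Of 12 cardiomyocyte markers, only GATA4 had enough counts to be tested. It fell from 17.9 ± 2.12 to 14.3 ± 2.19 CPM (counts normalised to library size; mean ± SD, n = 3), and this call was lost without control replicate 1, without treated replicate 3 and with scaling by total counts. TNNI3 was at 0 in all libraries, TNNT2 had 4 control and 6 treated counts, and MYH7 had 0 control and 6 treated counts, so sarcomere markers of the labelled cell type were at or near 0. ACTN2, RYR2 and PLN had 0 control counts and 18, 29 and 30 treated counts, while ACTC1 had 19 control and 15 treated counts. Of 10 fibroblast markers, 9 fell and VIM was not called, and their summed level went from between 16200 and 17569 CPM in the controls to between 7354 and 7766 CPM in the treated libraries. COL1A1, COL1A2 and COL3A1, with control means of 8438, 3514 and 2137 CPM, hold most of that sum, and VIM held 2201 CPM. The sum is therefore largely that of the collagen chains described below, not a separate measure. The part of this shift in the results below was not tested, and in bulk RNA fewer cells of a type cannot be told apart from less RNA per cell. The sums of the other marker lists were 475.6 to 504 CPM in controls and 548 to 570 CPM in treated libraries for smooth muscle, 235 to 247 and 216 to 229 CPM for epithelium, 21.7 to 24.7 and 12.5 to 13.3 CPM for endothelium, and 3.79 to 5.46 and 6.70 to 8.02 CPM for leukocytes. These sums follow their most abundant genes and not always most of the list. Of 6 smooth muscle markers 3 rose and 3 fell (median log2 change -0.23), with SMTN at 221 and 433 CPM carrying much of the higher sum. Of 5 tested endothelial markers 3 rose and 1 fell (median 0.77), and the lower sum was that of TEK, at 20.7 and 7.01 CPM. Of 5 tested leukocyte markers 2 rose, among them PTPRC (1.11 to 3.82 CPM), and 1 fell, and of 5 epithelial markers only KRT18 was called, lower, a call lost in 6 of 16 settings, among them without control replicate 1 and without treated replicate 3.

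Most of the enzymes fell. In edgeR's quasi-likelihood test over 15575 genes, at a Benjamini-Hochberg adjusted p below 0.05, 8 of the 10 were called lower, where 31.2% of all tested genes were, and 2 were called higher, where 32.3% of all genes were. The members that fell were SERPINH1, P4HA1, PLOD1, PLOD2, LOX, LOXL1, LOXL2 and PCOLCE, and those that rose were P4HA2 and BMP1. Being called at all was common in these data, at 63.5% of tested genes. A fall of at least 2-fold was not: it was found in 5 of the 10 enzymes (SERPINH1, PCOLCE, LOXL1, LOXL2 and PLOD2) and in 4.62% of all tested genes. The median log2 change of the 10 was -0.94, against 0.02 over all tested genes. The enzymes are abundant transcripts. Their mean levels ran from 80.6 CPM for PCOLCE to 668 CPM for LOXL2, and each lay above 79.2% or more of the tested genes. Among the 3233 genes at least as abundant as PCOLCE, 79.2% were called, 50.8% were called lower, 4.70% were lower by at least 2-fold, and the median log2 change was -0.12. The control and treated values did not overlap for 9 of the 10 enzymes, with BMP1 as the exception, for 66.7% of all tested genes and for 80.7% of the 3233 abundant ones. Tested against a change of 1.5-fold instead of no change (edgeR's glmTreat), 6 of the enzymes were called lower, where 7.33% of all genes were, and 0 higher, where 11.9% were. The labels do not state whether replicates were separate cultures, and the p-values therefore reflect the variation among the 6 libraries, part or all of which may be technical.

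**Figure D1:**
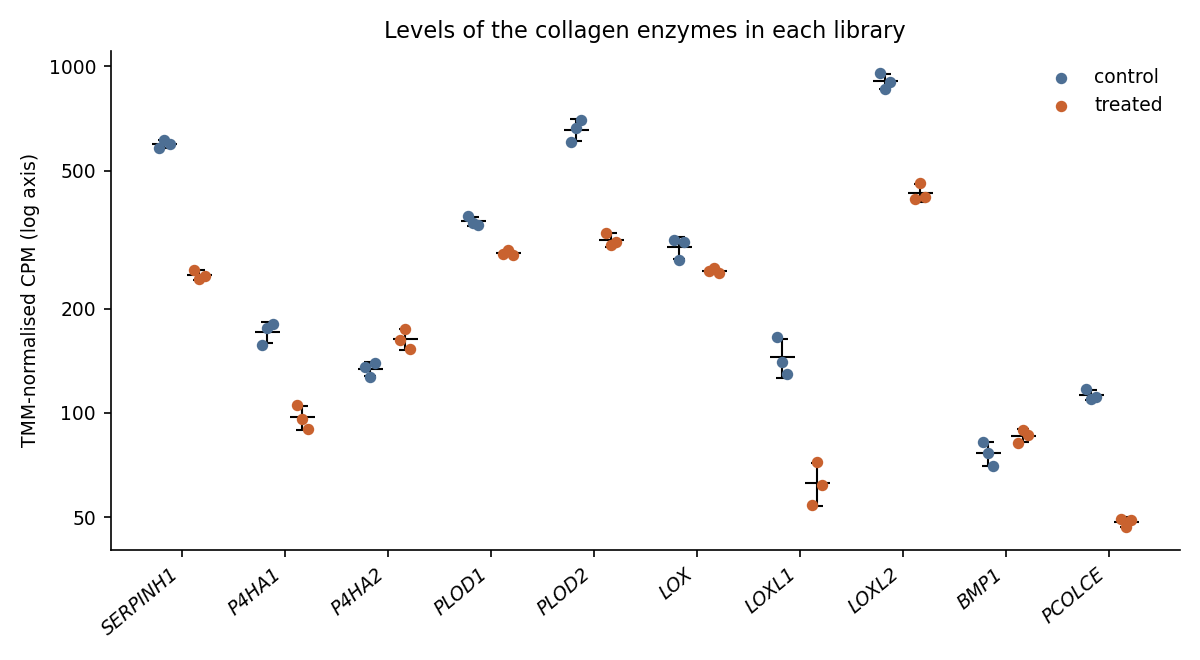
Level of each enzyme in each library, in TMM-normalised CPM on a log axis; points are libraries (blue control, orange treated), long bars are means and error bars are the SD of 3 libraries. The treated points of SERPINH1, PLOD2, LOXL1, LOXL2 and PCOLCE lie far below the controls, those of P4HA2 lie above, and those of BMP1 overlap the controls.

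SERPINH1, which encodes the collagen chaperone HSP47, had the largest fall of the 10 on the log2 scale. PCOLCE (log2 change -1.22, SE 0.058) and LOXL1 (-1.21, SE 0.067) came close, and the order of the 3 was not tested. The SERPINH1 gene (ENSG00000149257) lies on the plus strand of GRCh38 at chr11:75562056-75572783. The controls had 581, 612 and 595 CPM and the treated libraries 259, 243 and 248 CPM. Every treated library was far below the lowest control, with little spread inside either group. The mean went from 596 ± 15.2 to 249.98 ± 7.89 CPM, a fall by 58.1%, and the log2 change was -1.25 (SE 0.046, edgeR adjusted p = 1.41e-33). Only 2.77% of tested genes had a lower log2 change. The promoter of SERPINH1 is a textbook target of heat shock factor, so a short stretch is shown around the match to the heat shock element core GAANNTTC (in capitals, both strands searched, 71 to 64 bases before the RefSeq start). It is the plus strand at chr11:75562171-75562200 of GRCh38.p14, inside an annotated exon of another transcript:
SERPINH1 heat shock match: ccaactttccaGAAGTTTCtcgggacgggc

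Heat shock factor targets as a list moved in both directions. Of 12 genes, all tested, 6 rose, 4 fell and 2 were not called. Their median log2 change was 0.10. HSPA1A (log2 change 0.73) and HSPA1B (0.63), near-identical copies of the inducible HSP70 gene whose reads may be shared out between them, had the largest rises. HSPD1 (-0.31), the mitochondrial chaperonin, and HSPA8 (-0.27), the constitutive HSP70, had the largest falls.

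The prolyl 4-hydroxylase is a tetramer of 2 catalytic alpha subunits, encoded by P4HA1, P4HA2 or P4HA3, and 2 beta subunits encoded by P4HB, and its alpha subunits moved apart. P4HA1 (ENSG00000122884, minus strand, chr10:73007217-73096974) had 157, 176 and 180 CPM in the controls and 105, 96.2 and 89.7 CPM in the treated libraries. All treated values lay below all control values. P4HA1 fell 1.76-fold, from 171 ± 12.2 to 97.0 ± 7.74 CPM (log2 change -0.82, SE 0.055, edgeR adjusted p = 1.97e-20). P4HA2 (ENSG00000072682, minus strand, chr5:132191838-132295315) had 136, 127 and 139 CPM in the controls and 163, 175 and 152 CPM in the treated libraries. Here the treated values all lay above the controls, and the gap between the groups, from control replicate 3 to treated replicate 3, was narrower than the range of the treated libraries. P4HA2 rose 1.22-fold, from 134 ± 6.53 to 163 ± 11.3 CPM (log2 change 0.29, SE 0.053, edgeR adjusted p = 3.36e-06). P4HA3, the least abundant alpha subunit, was low, at 3.72 ± 0.46 CPM, and fell to 1.64 ± 0.28 CPM (log2 change -1.18, SE 0.24, edgeR adjusted p = 1.70e-05). P4HB, which is also protein disulfide isomerase, was at 837 ± 39.2 and 829 ± 9.35 CPM and was not called (log2 change -0.01, edgeR adjusted p = 0.802). With total-count scaling its log2 change was 0.11 and called (adjusted p = 0.0180, the lowest over all settings tried). With the filter of at least 1 CPM in 3 libraries its edgeR adjusted p was 0.993. Of the exon bases of P4HA2, 6.45% were shared with the antisense gene P4HA2-AS1, which had 0 control and 6 treated counts.

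A ratio inside a library does not depend on how libraries are scaled, so the balance of the alpha subunits was also read as counts per kb of P4HA2 over P4HA1. The ratio was 0.315, 0.262 and 0.281 in the controls and 0.563, 0.662 and 0.618 in the treated libraries. The groups were clearly apart, and the mean log2 ratio was higher by 1.10, a 2.15-fold shift toward P4HA2. With 3 libraries against 3, the two-sided exact permutation test cannot give less than p = 0.10, the value it gave here (adjusted over 6 ratios, 0.12). P4HA1 made up 76.8% ± 1.71 of the alpha subunit counts per kb in controls and 61.5% ± 1.95 in treated cells, and P4HA2 21.9% ± 1.55 and 37.7% ± 1.88. The sum of the 3 alpha subunits was 1.41-fold lower, at 71.9 ± 3.97 and 51.0 ± 3.29 CPM per kb. Lengths here are all exon bases of a gene, 8502 for P4HA2 and 3093 for P4HA1, not those of the transcripts in use. Without the division by length P4HA2 held the larger share in treated cells (62.3%), so the order of P4HA1 and P4HA2 depends on length, while the direction of the shift does not.

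The lysyl hydroxylases also moved unequally. PLOD2, the enzyme of the telopeptide lysines that lead to the pyridinoline type of crosslink, fell far more than PLOD1, an enzyme of helical lysines. PLOD2 (ENSG00000152952, minus strand, chr3:146069440-146163653) had 604, 666 and 699.8 CPM in the controls and 331, 304 and 312 CPM in the treated libraries. PLOD1 (ENSG00000083444, plus strand, chr1:11934205-11975538) had 369, 353 and 349 CPM in the controls and 287, 295 and 285 CPM in the treated libraries. For both genes the groups were separate by more than the range inside either group, and the gap in CPM was wider for PLOD2 than for PLOD1. PLOD2 fell 2.08-fold (657 ± 48.4 to 316 ± 13.9 CPM, log2 change -1.06, SE 0.049, edgeR adjusted p = 1.33e-28). PLOD1 fell 1.24-fold (357 ± 10.3 to 289 ± 5.19 CPM, log2 change -0.31, SE 0.046, edgeR adjusted p = 3.55e-08), and its log2 change was -0.18 when libraries were scaled by total counts. PLOD3, which also transfers glucose onto hydroxylysine, moved the other way, from 154 ± 6.94 to 178 ± 2.20 CPM (log2 change 0.21, edgeR adjusted p = 2.48e-04). The ratio of PLOD2 to PLOD1 in counts per kb was 1.14, 1.31 and 1.39 in the controls and 0.803, 0.718 and 0.762 in the treated libraries. PLOD2 was thus above PLOD1 per length in every control and below it in every treated library (log2 difference -0.75, exact permutation p = 0.10, the smallest possible, adjusted 0.12). The PLOD2 share of the family went from 47.6% ± 2.49 to 32.5% ± 1.02, while the shares of PLOD1 (37.3% ± 1.91 to 42.8% ± 1.06) and PLOD3 (15.1% ± 0.76 to 24.7% ± 0.28) were larger in treated cells. Without division by length PLOD2 kept the largest share in treated cells, at 40.3% against 36.9% for PLOD1.

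**Figure D2:**
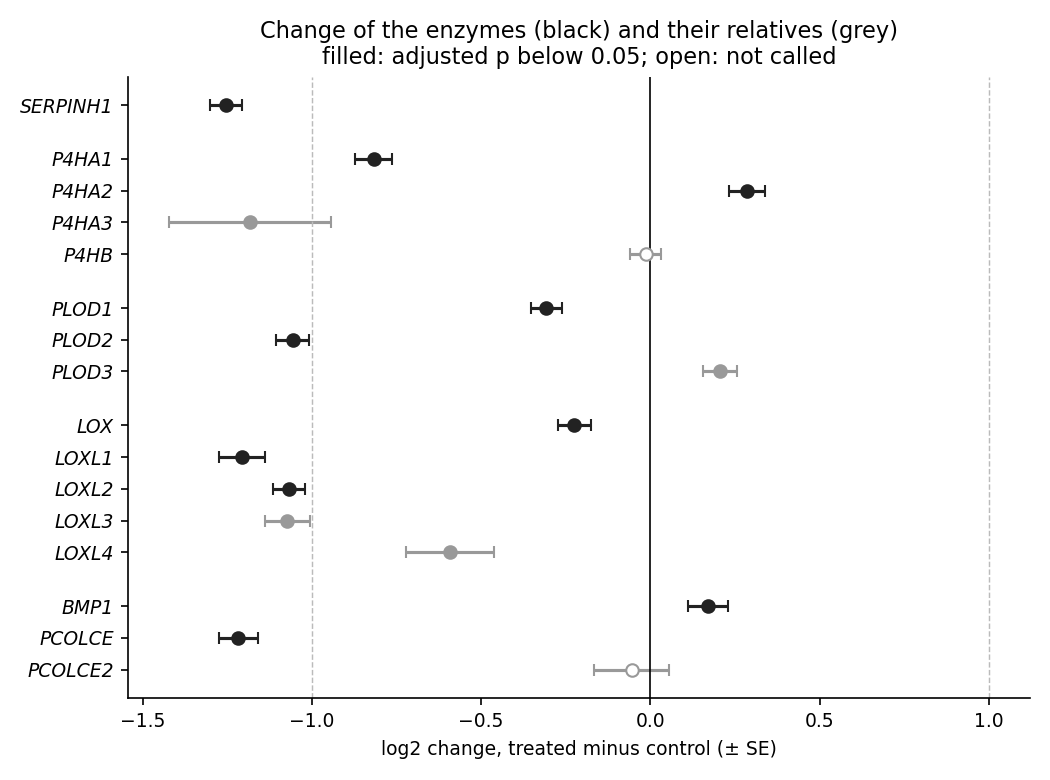
Log2 change of the 10 enzymes (black) and their closest relatives (grey) with the standard error, grouped by role; filled points passed the test and dashed lines mark a 2-fold change. Within the families P4HA2 lies right of zero at 0.29 and P4HA1 left at -0.82, PLOD2 lies at -1.06 and PLOD3 at 0.21, and LOX at -0.22 lies nearest to zero among the lysyl oxidases.

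PLOD2, P4HA1 and LOX are known targets of hypoxia-inducible factors, whose binding core is ACGTG or GCGTG. Promoter windows of RefSeq (GRCh38.p14, 250 bases before to 50 after each start) were found for 8 of the 10 enzymes, all but LOXL2 and BMP1, in 11 windows. On either strand 9 of these 11 windows, from 6 genes, held ACGTG or GCGTG, and 48.4% of all 35116 windows did. ACGTG was found in 7 of the 11 (21.4% of all windows) and GCGTG in 6 (36.5%). The windows are not independent, since LOX has 3 and SERPINH1 2 and some of them overlap. The P4HA2 and LOXL1 windows held neither core. Both cores contain CG, and the GC content of the 250 bases before the start ran from 54.8% (P4HA2) to 72.4% (PLOD2) in these windows. Its median over all windows was 58.0%, and the shares were not adjusted for GC content. The antioxidant response element core TGACNNNGC was found in no window of the 8 genes and in 13.3% of all windows, and the heat shock core GAANNTTC in 2 of the 11, of SERPINH1 and PLOD1, and in 6.77% of all windows. No 2 matches overlap in the stretches below. They show PLOD2 and PLOD1 side by side as the pair of 1 family with unequal falls, and LOX and P4HA1 as other members with matches. The PLOD1 and LOX stretches stop where an annotated exon begins, so later matches of the same windows are cut or missing. These are GCGTG of PLOD1 at 25 to 21 bases before the start, and ACGTG of LOX at 98 to 94 and 42 to 38 bases before it. Capitals mark ACGTG or GCGTG or their reverse complements CACGT and CACGC, and each stretch runs 5′ to 3′ on the strand of the gene. They are chr3:146161185-146161434 (minus) for PLOD2, chr1:11934467-11934693 (plus) for PLOD1, chr5:122078361-122078509 (minus) for LOX and chr10:73096936-73096965 (minus) for P4HA1. The P4HA1 match, 86 to 82 bases before the RefSeq start, lies inside an annotated exon, unlike the marked matches of the other stretches. A match is only a match of letters, and occupancy was not measured:
PLOD2: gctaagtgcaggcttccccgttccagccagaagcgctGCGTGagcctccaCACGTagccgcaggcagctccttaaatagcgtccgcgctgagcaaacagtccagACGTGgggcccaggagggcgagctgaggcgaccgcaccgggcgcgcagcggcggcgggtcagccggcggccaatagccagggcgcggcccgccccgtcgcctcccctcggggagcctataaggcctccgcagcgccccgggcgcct
PLOD1: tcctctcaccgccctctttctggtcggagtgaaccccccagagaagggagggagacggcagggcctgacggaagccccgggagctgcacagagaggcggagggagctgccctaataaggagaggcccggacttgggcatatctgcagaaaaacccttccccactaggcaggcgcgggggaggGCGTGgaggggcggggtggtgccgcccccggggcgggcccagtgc
LOX: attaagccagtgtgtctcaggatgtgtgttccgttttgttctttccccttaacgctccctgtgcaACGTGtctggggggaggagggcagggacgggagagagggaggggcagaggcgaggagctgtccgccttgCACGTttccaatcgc
P4HA1: gtgtgatcgagctCACGTagcgagggctgc

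The list of hypoxia-inducible factor genes and targets moved in both directions. Of 18 genes 17 were tested, 4 rose, 8 fell and 5 were not called, and the median log2 change was -0.33. EPAS1, which encodes HIF-2 alpha, rose from 92.7 ± 3.63 to 383 ± 33.9 CPM (log2 change 2.05). NDRG1, a stress-induced gene, rose by 1.76 on the log2 scale. CA9, a carbonic anhydrase at 1.57 ± 0.28 CPM in controls that shares 38.5% of its exon bases with other genes, had a log2 change of -1.80, and LDHA, lactate dehydrogenase A, of -1.11. HIF1A, which encodes the other main alpha subunit, HIF-1 alpha, fell from 697 ± 9.32 to 399.5 ± 9.53 CPM (log2 change -0.80), and ARNT, which encodes their shared beta subunit, had a log2 change of -0.25 and fell too. HIF1A and ARNT were named after their values were seen. SLC2A1, the GLUT1 glucose transporter, belongs both to this list and to the supply list below and was not called.

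The lysyl oxidases held the most abundant and some of the most changed members. LOXL2 (ENSG00000134013, minus strand, chr8:23297189-23425328) had 954, 861 and 899 CPM in the controls and 415, 461 and 419 CPM in the treated libraries. LOXL1 (ENSG00000129038, plus strand, chr15:73925989-73952137), the member linked to elastic fibres, had 165, 140 and 129 CPM in the controls and 54.2, 72.1 and 61.9 CPM in the treated libraries. In both genes every treated library was below every control, and LOXL1 had the widest relative spread of the 10 inside its groups. LOXL2 fell 2.10-fold (905 ± 46.6 to 432 ± 25.3 CPM, log2 change -1.07, SE 0.047, edgeR adjusted p = 2.08e-29). LOXL1 fell 2.31-fold (145 ± 18.5 to 62.8 ± 8.98 CPM, log2 change -1.21, SE 0.067, edgeR adjusted p = 1.93e-24). LOXL1 shared 9.21% of its exon bases with the antisense gene LOXL1-AS1, which itself fell (67.4 to 23.6 CPM, log2 change -1.51), and the libraries carry no strand, so reads in the shared bases cannot be told apart. LOX (ENSG00000113083, minus strand, chr5:122063195-122078360), the founding enzyme of the family, had 315, 276 and 311 CPM in the controls and 257, 261 and 254 CPM in the treated libraries. Its groups did not overlap, but control replicate 2 came close to the treated values. LOX fell 1.17-fold (300.4 ± 21.6 to 257 ± 3.54 CPM, log2 change -0.22, SE 0.049, edgeR adjusted p = 5.49e-05). With total-count scaling LOX was not called (log2 change -0.10, adjusted p = 0.0672). Over all settings but glmTreat, whose null is a change of 1.5-fold, its adjusted p ran from 9.41e-07 to 0.0672. It shares 2.49% of its exon bases with SRFBP1, which rose (22.3 to 35.6 CPM, log2 change 0.67). Of the other lysyl oxidases, LOXL3 (68.8 ± 2.15 to 32.7 ± 2.75 CPM, log2 change -1.07, 19.3% of exon bases shared with HTRA2 and DOK1) and LOXL4 (11.5 ± 1.44 to 7.64 ± 1.18 CPM, log2 change -0.59) fell.

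Within the family LOX had a larger share in treated cells and LOXL2 a smaller one. The ratio of LOXL2 to LOX in counts per kb was 2.95, 3.04 and 2.81 in the controls and 1.57, 1.72 and 1.61 in the treated libraries (log2 difference -0.85). That of LOXL1 to LOX was 0.801, 0.773 and 0.634 in the controls and 0.322, 0.422 and 0.372 in the treated libraries (log2 difference -0.99). Neither ratio overlapped between the groups, and both reached the smallest exact permutation p of 0.10 (adjusted 0.12). LOXL1 and LOXL2 fell side by side: their ratio overlapped between the groups (log2 difference -0.14, exact permutation p = 0.30, adjusted 0.30), which does not show that they changed equally. By counts per kb LOX made up 19.95% ± 0.83 of the family in controls and 31.2% ± 1.34 in treated cells, and LOXL2 58.4% ± 0.47 and 50.8% ± 0.42. The summed family level was 1.82-fold lower, at 271 ± 16.1 and 149 ± 8.01 CPM per kb, next to 1.42-fold lower for the lysyl hydroxylases (180.2 ± 4.32 and 126.9 ± 1.76 CPM per kb).

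**Figure D3:**
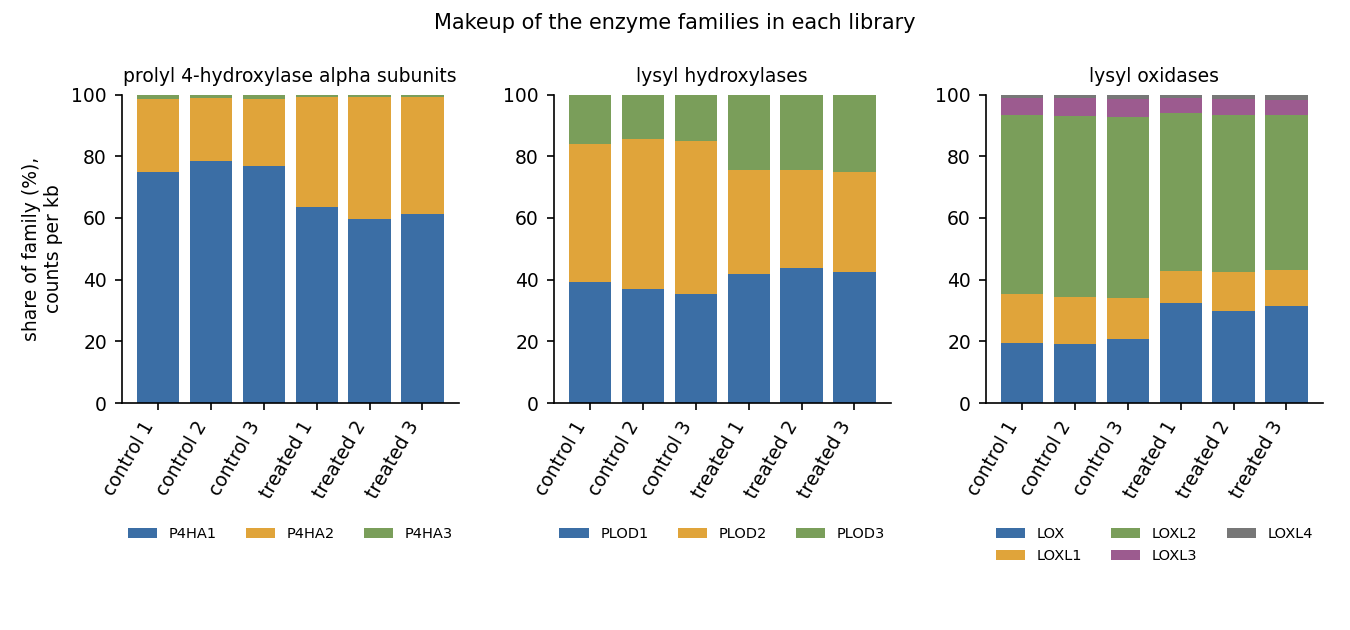
Share of each gene in its family in each library, in percent of the family's counts per kb; bars stack to 100 and the libraries run from 3 controls to 3 treated. P4HA2, PLOD3 and LOX take larger shares in every treated library than in any control, and P4HA1, PLOD2 and LOXL2 smaller ones.

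The pair that acts on the procollagen C-propeptide split. PCOLCE (ENSG00000106333, plus strand, chr7:100602177-100608175), the enhancer of the protease, had 117, 110 and 111 CPM in the controls and 49.5, 46.7 and 49.1 CPM in the treated libraries. Both groups were tight, and they were far apart. PCOLCE fell 2.33-fold (113 ± 3.64 to 48.4 ± 1.52 CPM, log2 change -1.22, SE 0.058, edgeR adjusted p = 5.35e-28). It shared 16.6% of its exon bases with PCOLCE-AS1, which had 14 control and 3 treated counts. BMP1 (ENSG00000168487, plus strand, chr8:22164736-22212326), the protease, had 82.2, 76.6 and 70.1 CPM in the controls and 81.9, 89.3 and 86.5 CPM in the treated libraries. Control replicate 1 was above treated replicate 1, so the groups overlapped. BMP1 rose 1.13-fold (76.3 ± 6.07 to 85.9 ± 3.70 CPM, log2 change 0.17, SE 0.059, edgeR adjusted p = 0.00915). The call of BMP1 was lost without control replicate 3 (log2 change 0.10, adjusted p = 0.155) and without treated replicate 2 (0.14, adjusted p = 0.0645), and with glmTreat. Total-count scaling put its log2 change at 0.30. Over all settings but glmTreat its adjusted p ran from 8.33e-06 to 0.155. The ratio of PCOLCE to BMP1 in counts per kb went from 3.00, 3.04 and 3.36 in the controls to 1.28, 1.11 and 1.20 in the treated libraries, with no overlap (log2 difference -1.39, exact permutation p = 0.10, adjusted 0.12). PCOLCE2, the second enhancer, was at 13.7 ± 1.47 and 13.2 ± 1.74 CPM and was not called (log2 change -0.06, edgeR adjusted p = 0.683), and its direction turned with total-count scaling (0.0729). The other proteases of the BMP1 family were near the floor and not tested: TLL1 had 17 control and 36 treated counts, and TLL2 had 2 and 25. The library-size-corrected ratio of TLL2 was 10.5 (95% exact binomial interval 2.62 to 91.7, which covers counting error only).

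Per kb of exon the order of the enzymes changed between the groups. In the controls LOXL2 had the highest level (159 ± 8.17 CPM per kb), followed by SERPINH1 (121 ± 3.09), PLOD2 (85.9 ± 6.33), PLOD1 (67.1 ± 1.94), P4HA1 (55.3 ± 3.96), LOX (54.2 ± 3.89), LOXL1 (39.8 ± 5.08), PCOLCE (31.9 ± 1.03), P4HA2 (15.8 ± 0.77) and BMP1 (10.2 ± 0.81 CPM per kb). Only the neighbours P4HA1 and LOX overlapped in that order. In the treated libraries the order was LOXL2 (75.6 ± 4.43 CPM per kb), PLOD1 (54.3 ± 0.98), SERPINH1 (50.9 ± 1.605), LOX (46.4 ± 0.64), PLOD2 (41.3 ± 1.82), P4HA1 (31.4 ± 2.50), P4HA2 (19.2 ± 1.33), LOXL1 (17.3 ± 2.47), PCOLCE (13.7 ± 0.43) and BMP1 (11.5 ± 0.50 CPM per kb). There only P4HA2 and LOXL1 overlapped. LOX stood below PLOD2 and PLOD1 in the controls and above PLOD2 in the treated libraries although it fell, and SERPINH1 fell from above PLOD1 to below it. The crossing of LOX and PLOD2 depends on the division by length. In CPM the treated libraries had 331, 304 and 312 for PLOD2 and 257, 261 and 254 for LOX. The change of order of SERPINH1 and PLOD1 was also seen in CPM.

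COL1A1 had a larger fall than each of the 10 enzymes. This gene, the alpha 1 chain of type I collagen and a main substrate, went from 8438 ± 670.5 to 2764 ± 103.7 CPM (log2 change -1.61), COL1A2 from 3514 ± 91.7 to 1877 ± 71.5 CPM (-0.90) and COL3A1 from 2137 ± 71.3 to 530.5 ± 26.2 CPM (-2.01 on the log2 scale). Set over COL1A1 in counts per kb, all 10 enzymes had a higher ratio in every treated library than in any control. The log2 ratio was higher by 0.35 for SERPINH1, 0.39 for PCOLCE, 0.40 for LOXL1, 0.54 for LOXL2, 0.55 for PLOD2, 0.79 for P4HA1, 1.30 for PLOD1, 1.39 for LOX, 1.78 for BMP1 and 1.89 for P4HA2. Each of the 10 gave the smallest exact permutation p of 0.10 (adjusted over the 10, 0.10), and they share the fall of COL1A1 as their denominator. Only 2.77% of tested genes had a lower log2 change than SERPINH1, which itself fell less than COL1A1. By their log2 changes most tested genes therefore rose relative to COL1A1 too, so the higher ratios are not particular to the enzymes. The share of all genes with separate groups in this ratio was not computed. COL1A2, with a log2 change of -0.90, fell less than SERPINH1, LOXL1, LOXL2, PLOD2 and PCOLCE, so relative to that chain the order of enzyme and substrate is the reverse for these 5, a difference that was not tested.

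**Figure D4:**
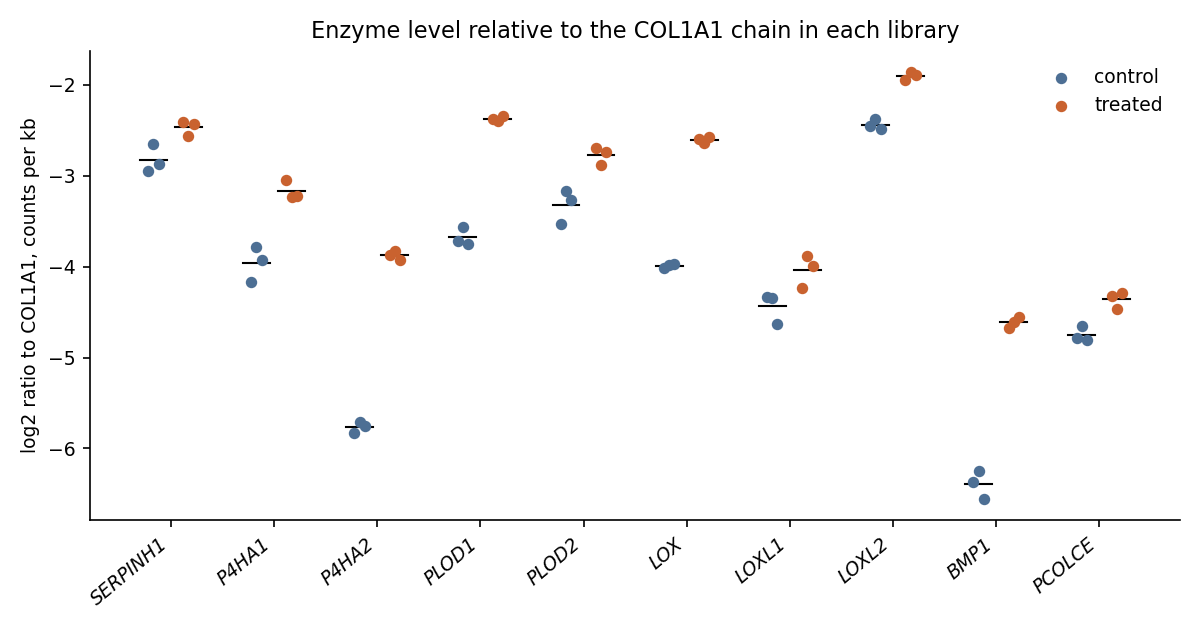
Log2 ratio of each enzyme to COL1A1 in counts per kb, by library (blue control, orange treated), with the mean of each group as a bar. Treated points lie above the control points for all 10 enzymes, by 0.35 for SERPINH1 up to 1.89 for P4HA2. COL1A1, the denominator, itself had a log2 change of -1.61.

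The wider collagen pathway was read from 9 lists, against a background in which 31.2% of all tested genes fell, 32.3% rose and the median log2 change was 0.02. Among 11 partners of the hydroxylases 5 fell, 4 rose and 2 were not called (median log2 change -0.01). COLGALT2, a collagen galactosyltransferase at 1.61 ± 0.32 CPM in controls, rose (log2 change 0.73), a call lost without control replicate 3 or treated replicate 2. TMEM38B, an endoplasmic reticulum ion channel needed for lysyl hydroxylation, rose by 0.64 on the log2 scale. P4HA3 (-1.18) and P3H4 (log2 change -0.79), which works with the lysyl hydroxylases, had the largest falls. Of 12 folding and export helpers 7 fell, 2 rose and 3 were not called (median -0.30). CREB3L1, a transcription factor of secretory and collagen genes, had a log2 change of -1.495 and SPARC, a collagen-binding glycoprotein, of -1.27, while MIA2 (1.06) and KLHL12 (0.68), which act in the export of large cargo, rose. The procollagen proteases ADAMTS14 (log2 change -2.50), ADAMTS2 (-1.69) and ADAMTS3, which cut the N-propeptide, made up the 3 falls among the 5 tested genes of the propeptide list (median -1.46), and PCOLCE2 and FURIN were not called. That list has 9 genes, of which TLL1, TLL2, MEP1A and MEP1B were too low to test. Its median rests on which genes are tested: it was -0.79 without control replicate 1, -0.76 without control replicate 2, -0.78 without control replicate 3 and -0.75 without treated replicate 2, where TLL1 entered as well, and 0.00869 with all 9 genes in the fit.

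Of 13 genes of crosslinking and fibril assembly 11 fell, 1 rose and 1 was not called (median log2 change -0.91). LUM, a proteoglycan that regulates fibril width (log2 change -1.98), and POSTN, a matricellular protein that aids crosslinking (-1.91), fell most, and TGM2, a transglutaminase, rose (0.37). Of the 11 fibrillar chains 6 fell, 4 rose and 1 was not called (median -0.90). COL11A1 (-3.42) and COL3A1 had the largest falls, and COL27A1 (1.46) and COL5A3 (1.45) the largest rises among chains of at least 1 CPM on average. COL2A1, below that level, had 1 control and 104 treated counts (corrected ratio 87.6, 95% exact binomial interval 15.4 to 3491). Its lower limit also lies above the list's median, so using it in place of the fitted value could not move that median. Of 9 tested genes of ascorbate, iron and copper supply, cofactors of these enzymes, 2 rose, 4 fell and 3 were not called (median -0.13). SLC31A1, the copper importer (0.47), and ATOX1, a copper chaperone (0.35), rose, and TFRC, the transferrin receptor (-0.51), and SLC39A13, a zinc and iron transporter (-0.35), fell on the log2 scale. Of 16 genes of the TGF-beta response, the best known inducer of these enzymes, 5 rose, 9 fell and 2 were not called (median -0.17). ACTA2, smooth muscle actin (2.81, with 30.1% of its exon bases shared with other genes), and LTBP2, a matrix protein (1.28), rose, while TAGLN, an actin-binding protein (-2.40), and TGFB2, a ligand (-1.99, 26.6% shared), fell.

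**Figure D5:**
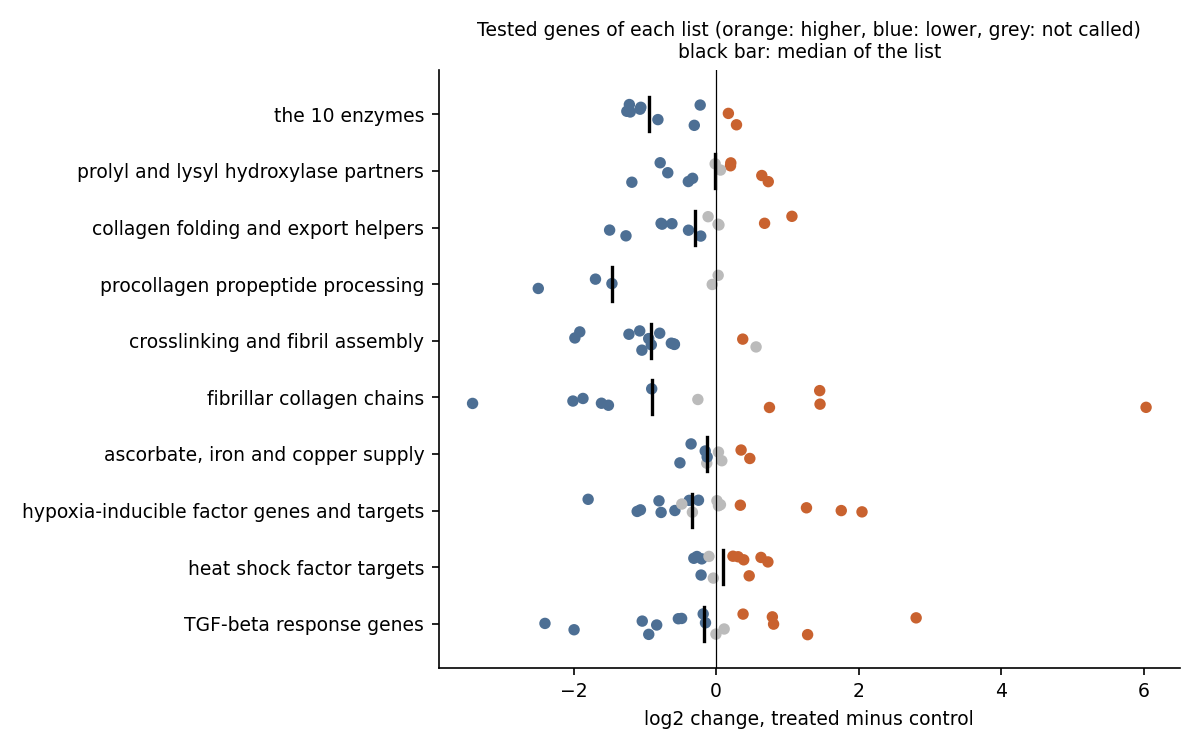
Log2 change of each tested gene of the 10 enzymes and 9 lists (orange higher, blue lower, grey not called), with the median of each list as a black bar. The enzymes have a median of -0.94, near those of the crosslinking list (-0.91) and the fibrillar chains (-0.90), and the point at 6.03 is COL2A1, whose fitted value rests on 1 control count.

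Genes whose pattern over the 6 libraries was nearest to that of a member were sought among 10455 protein-coding genes, by the root mean square distance of log2 CPM after centring on the control mean. Nearest to SERPINH1 were NUF2 (distance 0.040), a kinetochore gene, KIF11 (0.044), a mitotic kinesin, and TTC27 (0.045). Nearest to P4HA2 were HAPSTR1 (0.029, with 52.5% of its exon bases shared with other genes), ATP2A2 (0.031), the calcium pump of the sarcoplasmic reticulum, and SLC35E1 (0.032). These distances describe 6 libraries of 2 groups only.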

How the data were processed

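Per the labels' protocols, unstranded poly(A) RNA libraries were made from 3 control and 3 treated AC16 samples, grouped by the treatment label. The authors deposited 1 table of counts, whole reads per gene, with gene coordinates and merged exon lengths per the file headers. Alignment and counting tools listed in the submitters' processing notes are STAR, SAMtools and Subread with featureCounts, on GRCh38 (hg38). Their versions, the counting options and the gene annotation used are not given in the sources used here. A symbol was found for 57717 identifiers through a gene name table. GENCODE v29, read for gene types and coordinates, held 58179 of the identifiers. Replicates differed by more than sampling noise (chi-square over degrees of freedom 3.00 to 4.01).

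Genes passing filterByExpr (minimum count 10) were scaled by TMM and tested with edgeR 4.0.16 (glmQLFit, glmQLFTest; R 4.3.3), with Benjamini-Hochberg adjustment over all 15575 genes and a threshold of 0.05. The code was tested on simulated data. The SE is the log2 change over the square root of F. CPM per kb divides by the deposited length, and a call needs no minimum fold. Ratios used exact permutation tests (scipy 1.17.1). Motifs were searched in RefSeq windows. Alternatives were scaling by RLE, by upper quartiles or by total counts, omission of the filter, at least 1 CPM in 3 libraries, DESeq2 1.42.0, limma-voom (limma 3.58.1), a replicate block, leaving out each library, an adjusted p of 0.01, glmTreat against 1.5-fold, 0.5 added to counts in ratios, and shares without length.

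Members and gene lists were chosen with earlier results of these data known. Named genes were the members, their paralogues, P4HB, COL1A1, COL1A2, COL3A1, the 2 largest called rises and falls of each list at a mean of at least 1 CPM, the 3 genes nearest to the members with the largest rise and fall (at least 5 CPM), and the top gene of each other marker list. Genes named outside this rule (HIF1A, ARNT, VIM, cardiac markers, ADAMTS3, FURIN, MEP1A, MEP1B, SLC2A1, EGLN3, SLC23A1, COL2A1 and overlap partners) and the backgrounds of abundant genes were chosen after values were seen.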

Additional observations from a re-analysis of the deposited data

How the results depend on the processing

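Over 16 alternative settings of the fit, the 10 enzymes kept their direction in all 160 values and their call in 153. The adjusted p of 0.01 and glmTreat use the log2 changes of the main fit, so no direction could turn in these settings. Of the 7 lost calls, 4 came from glmTreat against 1.5-fold (P4HA2, PLOD1, LOX and BMP1) and the other 3 are those given for LOX and BMP1. Among all 61 named tested genes 932 of 976 values kept call and direction, 37 lost the call and 7 turned direction. The number of genes called was 9893, and 2993 with glmTreat, whose null is a change of 1.5-fold. The number of enzymes called higher was 2, 0 with glmTreat and 1 to 2 when a library was left out. With total-count scaling the median log2 change over all genes was 0.15 instead of 0.02, and its calls were 6355 higher and 3602 lower against 5028 and 4865. The median of the hydroxylase partners, which is the value of P4HB, turned from -0.01 to 0.0392 with upper-quartile factors, 0.11 with total counts, 0.000493 with the 1 CPM filter and 0.0206 without control replicate 1, with a range of -0.0482 to 0.0206 over libraries left out. That of the propeptide list was 0.00869 without a filter, where more genes were tested, and -1.48 to -0.75 with a library left out. That of the supply list was 0.00113 with total counts. PCOLCE2 turned from -0.06 to 0.0729 with total counts, 0.0283 without control replicate 3 and 0.00308 without treated replicate 3, with a range of -0.171 to 0.0283 over libraries left out.

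Without division by length the control and treated shares were 55.4% and 37.0% for P4HA1, 43.4% and 62.3% for P4HA2, 30.6% and 36.9% for PLOD1, 56.2% and 40.3% for PLOD2, 13.2% and 22.7% for PLOD3, 10.1% and 7.90% for LOXL1, 63.3% and 54.5% for LOXL2, 4.81% and 4.13% for LOXL3, and 0.80% and 0.96% for LOXL4. The control share of LOX was 21.0% and the treated share of P4HA3 0.62%. Each change of share between the groups kept its direction.

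The deviations of same-numbered libraries from their group means correlated at -0.126, -0.112 and -0.045 over 9639 genes. Those of libraries with different numbers correlated at -0.013 to 0.122. Deviations from a mean of 3 libraries are not independent, so these values cannot show whether the replicate numbers pair the samples. With the replicate block 9653 genes were called, and the enzymes called were again 8 lower and 2 higher. Sign flips within pairs cannot go below p = 0.25, the value of all ratios but LOXL1 to LOXL2 (p = 0.50, exact). Depth limits TLL1, TLL2, MEP1A, MEP1B, EGLN3 and SLC23A1, which were too low to test.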
